A study of Mus musculus with 27 samples.

Results

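The Sonic hedgehog (Shh) pathway and the ventral transcription factors that work with it were followed in the fetal mouse brain through 10 genes. They are the ligand Shh, the receptor Ptch1, the decoy receptor Hhip, the signal transducer Smo, the transcription factors Gli1, Gli2 and Gli3, and the ventral regulators Nkx2-1, Foxa1 and Foxa2. They were taken by gene symbol and are 10 of the 55416 rows of the gene read-count table. All 10 had reads in each of the 27 libraries.

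Shh is made by the floor plate and by ventral parts of the forebrain. It binds Ptch1, which otherwise holds Smo inactive, and active Smo changes how the Gli proteins are processed. Gli2 is the main activator, Gli3 acts mostly as a repressor, and Gli1 is both an activator and a direct target of the pathway, as are Ptch1 and Hhip. Foxa2 and Foxa1 are forkhead factors of the floor plate and ventral midbrain, and Nkx2-1 is required for the medial ganglionic eminence and the hypothalamus.

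Poly-A RNA of fetal whole brain was sequenced in 3 strains at 3 gestational ages, d12, d15 and d17 (d, day), giving 9 groups of 3 libraries. C57BL/6J is an inbred strain described as long-lived. AKR/J is an inbred strain described as short-lived. B6.Cg-Cav1tm1Mls/J, called Cav1-null, is congenic to C57BL/6J, lacks the caveolar protein gene Cav1 in the whole animal and is also described as short-lived. All fetuses were female, mothers were about 8 weeks old when mated, the day of the plug was day 1, and no agent was given. The labels do not say which fetuses shared a litter, so p-values measure only the spread between these samples. The period from d12 to d15 is the early phase and that from d15 to d17 the late phase.

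Library totals ran from 26363697 to 39759702 reads over genes, with a median of 29700746. Cav1 was at 9.42 to 41.1 CPM (counts scaled to library size and by TMM factors over the 27 libraries) in AKR/J and C57BL/6J and at 0 to 0.503 CPM in Cav1-null. All 10 genes of a neural marker list reached 1 CPM in every group. The 3 AKR/J d12 libraries held 34317 to 201683 CPM of 11 erythroid genes, against at most 18214 elsewhere, and 1043, 139 and 16.1 CPM of Afp, a yolk sac and liver gene that stayed at or under 5.41 elsewhere. A list of 12 cartilage and connective tissue genes summed to 5724 CPM in C57BL/6J d15 replicate 1, 1541 in AKR/J d15 replicate 2 and 1214 in C57BL/6J d17 replicate 1, against 82.2 to 665 in the other d15 and d17 libraries. The part of these differences in the results was not tested. In whole tissue, fewer cells of a type and less RNA per cell cannot be told apart.

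**Figure D1:**
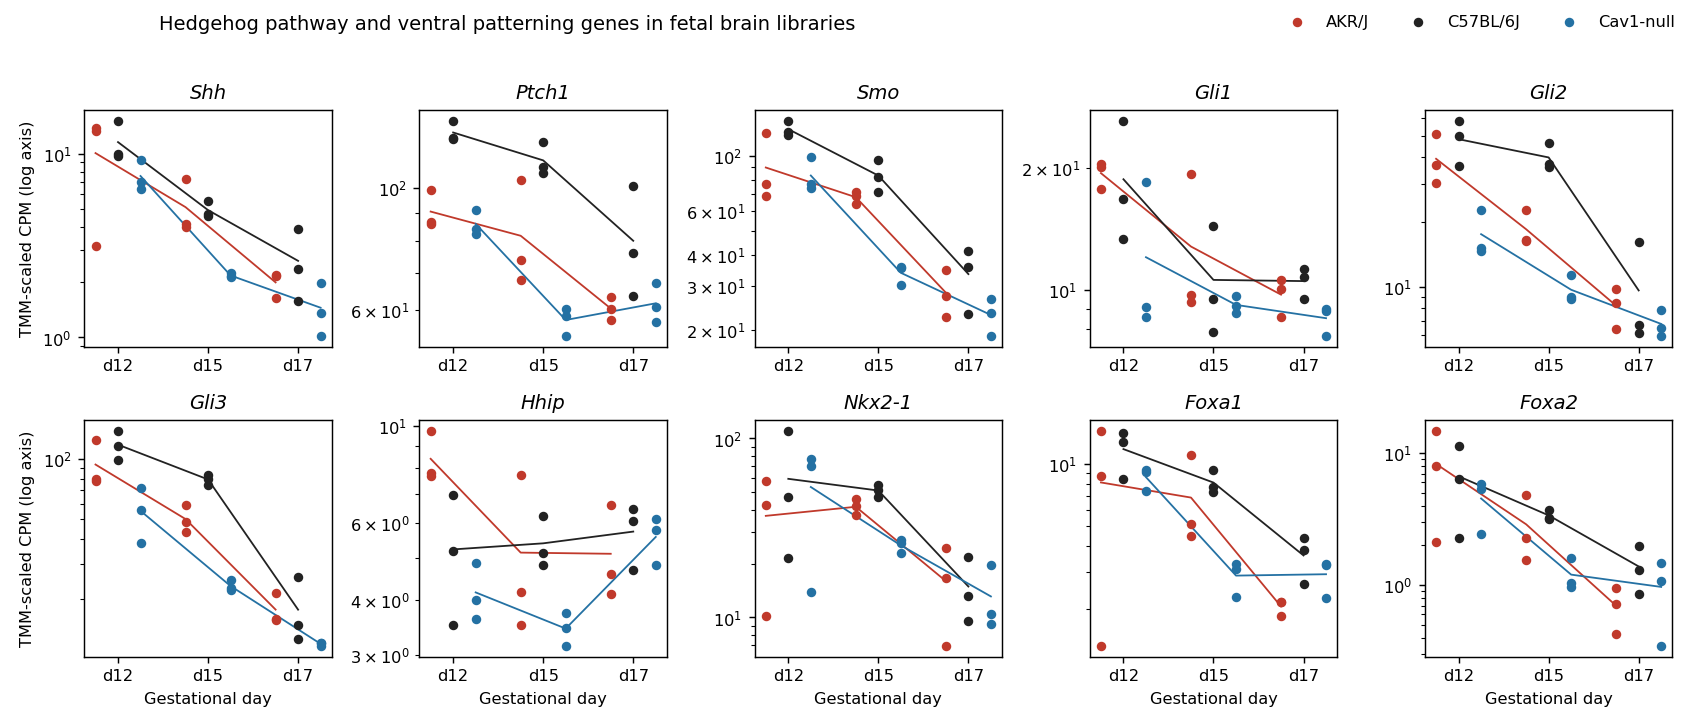
Level of the 10 genes in each library, in TMM-scaled CPM on a log axis, against gestational day. Points are libraries coloured by strain (AKR/J red, C57BL/6J black, Cav1-null blue) and lines join group means of 3 libraries. Smo, Gli2 and Gli3 step down from d12 to d17 in all 3 strains, whereas Gli1 and Hhip change little after d15 except for the rise of Hhip in Cav1-null.

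Levels of different genes were compared per kilobase of exon. In C57BL/6J on d15, Nkx2-1 stood highest at 16.9 ± 1.30 CPM per kb (SD, n = 3), followed by Smo at 9.43 ± 1.40, Gli3 at 7.92 ± 0.497 and Ptch1 at 7.62 ± 0.537. Gli2 was at 4.92 ± 0.709, Foxa1 at 2.41 ± 0.329, Gli1 at 2.11 ± 0.674 and Shh at 1.73 ± 0.182. Foxa2 was at 0.994 ± 0.0882 and Hhip lowest at 0.503 ± 0.0691. In this order the ranges of mean ± SD of Smo and Gli3 overlapped, as did those of Gli3 and Ptch1, of Foxa1 and Gli1, and of Gli1 and Shh. By d17 Ptch1, at 5.44 CPM per kb in C57BL/6J, stood beside Nkx2-1 at 4.91 and Smo at 3.80, with Foxa2 lowest at 0.408.

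The first question was how the pathway changed between days. Each strain and phase was tested by quasi-likelihood in edgeR, with p adjusted over all genes after Benjamini and Hochberg, and a gene is said to rise or fall where the adjusted p was under 0.05. Over the 3 strains, 12 of 30 pairs of gene and strain passed in the early phase and 18 in the late phase, and 29 of these 30 changes were falls. In AKR/J, Gli2 and Gli3 fell early, 2 of 10 genes, where 14% of all genes tested fell. Late in AKR/J, 7 of 10 fell, namely Shh, Smo, Gli2, Gli3, Nkx2-1, Foxa1 and Foxa2, where 10.4% of all genes fell. In C57BL/6J, Shh, Smo and Gli3 fell early, 3 of 10, against 7.8% of all genes. Late in C57BL/6J, Smo, Gli2, Gli3, Nkx2-1, Foxa1 and Foxa2 fell, 6 of 10, against 5.58% of all genes. In Cav1-null, 7 of 10 fell early, namely Shh, Ptch1, Smo, Gli2, Gli3, Foxa1 and Foxa2, against 11.8% of all genes. Late in Cav1-null, Smo, Gli2, Gli3 and Nkx2-1 fell, 4 of 10, against 12.8% of all genes, and Hhip rose, 1 of 10, against 14.5%. The median log2 fold change of the 10 genes was -0.68, -0.59 and -1.13 early in AKR/J, C57BL/6J and Cav1-null, and -1.27, -1.19 and -0.39 late, while the median over all genes tested lay between -0.04 and 0.03.

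These counts moved with single libraries. With each library left out in turn, 0 to 4 of the 10 genes passed early in AKR/J, 3 to 7 late in AKR/J, 0 to 3 early and 0 to 8 late in C57BL/6J, 6 to 8 early and 4 to 5 late in Cav1-null. In C57BL/6J early, leaving out d12 replicate 1 or any d15 library ended all 3 calls, and over all genes the calls went from 2850 to between 0 and 330. In the late phase of C57BL/6J, none of the 10 genes passed without d17 replicate 3, when 160 of all genes did, and 8 passed without d17 replicate 1, when 6990 of all genes did. In 1 model of all 27 libraries, 1 of the 10 genes, Gli3, passed late in Cav1-null in place of 5, and the late calls of Foxa1 and Foxa2 in C57BL/6J were lost (adjusted p = 0.0747 and 0.133). Early in AKR/J that model called 5 in place of 2, adding Shh, Foxa2 and Hhip (adjusted p = 0.0461, 0.0467 and 0.0450), and it called 9568 of 23307 genes.

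**Figure D2:**
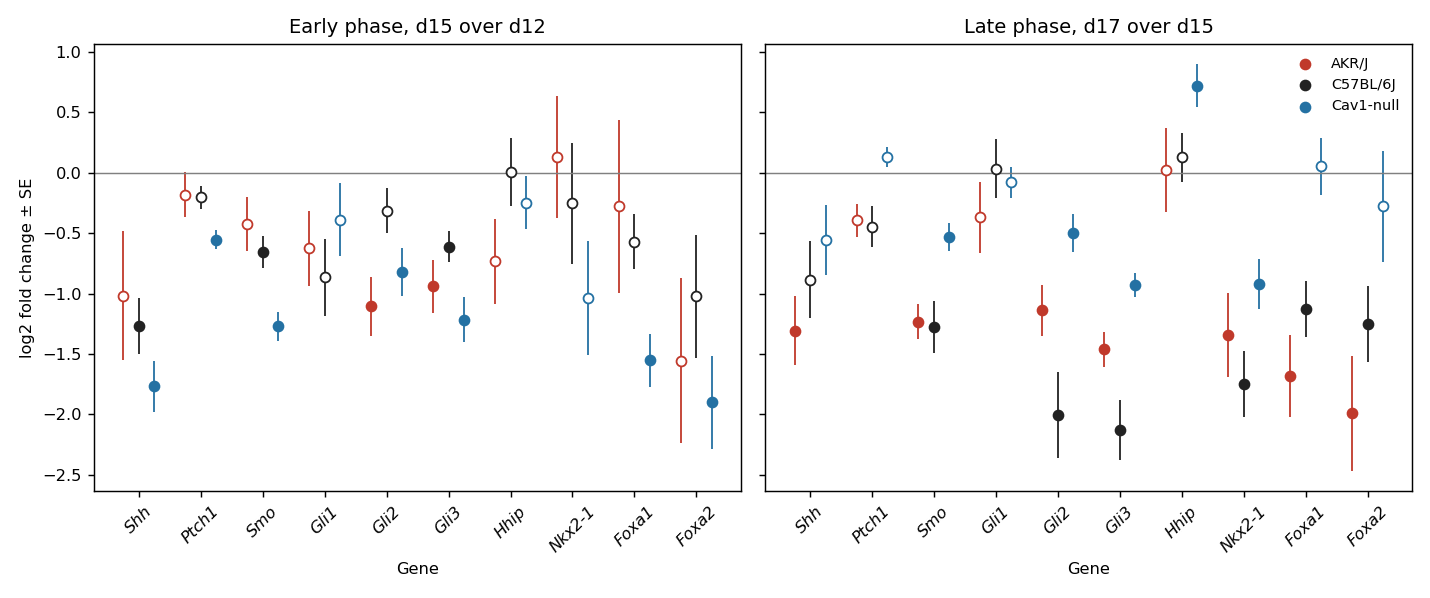
Log2 fold change of each gene from d12 to d15 (left) and from d15 to d17 (right), with bars of 1 SE, coloured by strain. Filled points have an adjusted p under 0.05 and open points do not. Nearly all filled points lie below 0, the exception being Hhip in Cav1-null in the late phase at 0.72.

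Shh (ENSMUSG00000002633, GRCm39 chromosome 5, 28661813 to 28672254, minus strand) declined with age in each strain. In C57BL/6J, Shh was at 9.67, 9.93 and 15.1 CPM on d12, 5.52, 4.71 and 4.57 on d15, and 3.89, 1.59 and 2.36 on d17. In AKR/J, Shh was at 13.3, 3.16 and 13.8 CPM on d12, 4.14, 3.97 and 7.24 on d15, and 2.19, 1.64 and 2.16 on d17. In Cav1-null, Shh was at 7.0, 9.26 and 6.42 CPM on d12, 2.13, 2.16 and 2.24 on d15, and 1.02, 1.98 and 1.35 on d17. Only the early phase of AKR/J had libraries of the earlier and later day that overlapped, through d12 replicate 2 at 3.16 CPM. The early fall was 2.41-fold in C57BL/6J (log2 fold change -1.27, SE 0.23, adjusted p = 0.0231) and 3.40-fold in Cav1-null (-1.77, SE 0.21, adjusted p = 0.000961). In AKR/J it was not past the threshold (-1.02, SE 0.53, adjusted p = 0.188), but it was without d12 replicate 2 (-1.48, SE 0.29, adjusted p = 0.00838), when calls over all genes rose from 5758 to 9052. That fit kept the 2 AKR/J d12 libraries with 101778 and 201683 CPM of erythroid genes, against 34317 in replicate 2, and their part was not tested. The late fall passed in AKR/J (-1.31, SE 0.28, adjusted p = 0.0144), though not without d17 replicate 2 or 3 (adjusted p = 0.0772 and 0.0549). In C57BL/6J the late change was -0.89 (SE 0.32, adjusted p = 0.101) and passed without d17 replicate 1 (-1.27, adjusted p = 0.0121), and in Cav1-null it was -0.56 (SE 0.29, adjusted p = 0.174).

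Ptch1 (ENSMUSG00000021466, chromosome 13, 63656142 to 63721412, minus strand), the Shh receptor and a target of the pathway, changed less than the ligand. In C57BL/6J, Ptch1 was at 132, 123 and 123 CPM on d12, 109, 106 and 121 on d15, and 100.7, 63.7 and 76.1 on d17. In AKR/J, Ptch1 was at 86.9, 85.8 and 99.1 CPM on d12, 68.2, 74.1 and 103 on d15, and 63.4, 60.3 and 57.6 on d17. In Cav1-null, Ptch1 was at 84.4, 91.3 and 82.5 CPM on d12, 58.5, 60.4 and 53.9 on d15, and 60.8, 67.3 and 57.2 on d17. The Cav1-null libraries of d15 were all below those of d12 and the fall of 1.47-fold passed the test (log2 fold change -0.56, SE 0.08, adjusted p = 0.00204), while the late change was 0.13 (SE 0.08, adjusted p = 0.268). In C57BL/6J the late change was -0.45 (SE 0.17, adjusted p = 0.116), which passed without d17 replicate 1 (-0.63, adjusted p = 0.00899). In AKR/J it was -0.39 (SE 0.14, adjusted p = 0.0711), which passed without d15 replicate 1 (-0.51, adjusted p = 0.0345).

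Of the 10 genes, Ptch1 also had the most reads in the table of splice junctions, with 9 junctions and 6456 reads, and 2 alternative first exons joined the same next exon. Their splice donors are shown because the choice between them sets which start of the gene a transcript used. Each run is 10 exon bases and 20 intron bases of GRCm39, minus strand, with the first 2 intron bases in capitals.
Ptch1 proximal first exon donor, chr13:63713156-63713185: gatttccaagGTgcacttctgtcccctcct
Ptch1 distal first exon donor, chr13:63720886-63720915: gccggctatgGTgagtgcgccgtgtctccg
The distal exon took 270 reads and the proximal exon 723 over all libraries, a distal share of 27.2% (Wilson 95% interval 24.5 to 30.04, counting error only). The share was 30.6% in AKR/J (24.9 to 37.0), 26.5% in C57BL/6J (22.9 to 30.4) and 25.6% in Cav1-null (20.5 to 31.5), so the intervals of the strains overlapped. In C57BL/6J the distal share was 16.5% ± 5.98 on d12 (SD, n = 3), 33.5% ± 9.46 on d15 and 35.1% ± 5.42 on d17, with no overlap between the d12 and the d15 libraries. In AKR/J it was 33.3% ± 12.1, 29.9% ± 10.8 and 22.1% ± 14.2 on the same days, with overlap. In Cav1-null it was 19.3% ± 8.51, 34.3% ± 15.7 and 27.1% ± 1.84, also with overlap. The 3 AKR/J libraries of d17 held 9 reads of the distal exon between them, and these shares were not tested.

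Hhip (ENSMUSG00000064325, chromosome 8, 80692480 to 80784658, minus strand) encodes a membrane protein that binds and sequesters hedgehog ligands, and it was the only gene that rose. In Cav1-null, Hhip was at 3.62, 4.87 and 4.0 CPM on d12, 3.14, 3.45 and 3.74 on d15, and 4.81, 5.78 and 6.13 on d17. In C57BL/6J, Hhip was at 5.19, 3.51 and 6.96 CPM on d12, 6.23, 4.82 and 5.12 on d15, and 6.47, 4.68 and 6.06 on d17. In AKR/J, Hhip was at 7.67, 7.82 and 9.73 CPM on d12, 3.50, 7.74 and 4.16 on d15, and 4.12, 4.59 and 6.60 on d17. The late rise in Cav1-null was 1.65-fold (log2 fold change 0.72, SE 0.18, adjusted p = 0.00783) and passed with each of the 6 libraries left out, but not in 1 model of all 27 libraries (0.72, adjusted p = 0.159). Late changes were 0.13 (SE 0.20, adjusted p = 0.686) in C57BL/6J and 0.02 (SE 0.35, adjusted p = 0.973) in AKR/J. The early change in AKR/J, -0.73 (SE 0.35, adjusted p = 0.156), passed without d15 replicate 2 (-1.17, SE 0.30, adjusted p = 0.0343), the AKR/J library of that day with the most connective tissue reads.

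Smo (ENSMUSG00000001761, chromosome 6, 29735407 to 29762532, plus strand), the membrane protein that carries the signal into the cell, fell in the late phase of all 3 strains. In C57BL/6J, Smo was at 121, 125 and 138 CPM on d12, 96.3, 82.1 and 71.6 on d15, and 41.6, 23.2 and 35.9 on d17. In AKR/J, Smo was at 77.1, 123 and 69.3 CPM on d12, 64.1, 71.6 and 69.0 on d15, and 34.8, 22.7 and 27.3 on d17. In Cav1-null, Smo was at 98.6, 77.1 and 74.5 CPM on d12, 35.6, 36.0 and 30.3 on d15, and 18.96, 26.7 and 23.3 on d17. No library of d17 reached any library of d15 in its strain. The late fall was 2.42-fold in C57BL/6J (log2 fold change -1.28, SE 0.21, adjusted p = 0.0137), 2.35-fold in AKR/J (-1.23, SE 0.14, adjusted p = 0.00139) and 1.45-fold in Cav1-null (-0.53, SE 0.11, adjusted p = 0.00362). The AKR/J and Cav1-null calls held with each library left out, but that of Cav1-null was lost in 1 model of all 27 libraries (-0.54, adjusted p = 0.138). The C57BL/6J call was lost without d15 replicate 1 or 2 or d17 replicate 3 (adjusted p = 0.0629, 0.0618 and 0.0785). Early, the fall was 2.41-fold in Cav1-null (-1.27, SE 0.12, adjusted p = 0.00038) and 1.58-fold in C57BL/6J (-0.66, SE 0.13, adjusted p = 0.0275), and in AKR/J the change was -0.43 (SE 0.22, adjusted p = 0.19).

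The table of junctions held 2 Smo junctions that leave the same first exon. The acceptors are shown because 1 of them belongs to an exon that the annotation places in transcripts of the nonsense-mediated decay class. Each run is 20 intron bases and 10 exon bases of GRCm39, plus strand, with the last 2 intron bases in capitals.
Smo main acceptor, chr6:29753449-29753478: attctatcaccacttcacAGgcctccggaa
Smo decay exon acceptor, chr6:29752521-29752550: cctccctctgcactggacAGagcctcctct
The decay exon took 110 reads and the main acceptor 1866, a share of 5.57% (Wilson 95% interval 4.64 to 6.67). The share was 2.65% ± 1.81 on d12 (SD, n = 3), 7.62% ± 3.29 on d15 and 13.7% ± 4.05 on d17 in C57BL/6J. It was 0.254% ± 0.441, 6.99% ± 3.49 and 8.71% ± 4.86 in AKR/J, and 3.26% ± 2.0, 7.83% ± 5.52 and 12.1% ± 11 in Cav1-null. In AKR/J and C57BL/6J every d15 library was above every d12 library, and in Cav1-null they overlapped. The main acceptor fell from 462 reads in the 3 C57BL/6J libraries of d12 to 78 on d17, the decay exon had 12 on both days, and the shares were not tested.

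Gli2 (ENSMUSG00000048402, chromosome 1, 118761858 to 118982598, minus strand), the main activator of the pathway, was lower in every Cav1-null library than in any of C57BL/6J on d12 and d15. In C57BL/6J, Gli2 was at 36.4, 58.4 and 49.6 CPM on d12, 46.2, 36.9 and 35.8 on d15, and 16.1, 6.15 and 6.73 on d17. In AKR/J, Gli2 was at 30.2, 50.7 and 36.4 CPM on d12, 16.5, 22.7 and 16.3 on d15, and 9.81, 8.43 and 6.40 on d17. In Cav1-null, Gli2 was at 22.7, 14.8 and 15.2 CPM on d12, 8.97, 8.83 and 11.4 on d15, and 5.96, 7.87 and 6.48 on d17. In C57BL/6J the level stayed high until d15 and then fell 4.02-fold (log2 fold change -2.01, SE 0.36, adjusted p = 0.0161), with an early change of -0.31 (SE 0.19, adjusted p = 0.264). In AKR/J it fell 2.15-fold early (-1.11, SE 0.24, adjusted p = 0.0123) and 2.20-fold late (-1.14, SE 0.21, adjusted p = 0.00724). In Cav1-null it fell 1.77-fold early (-0.82, SE 0.20, adjusted p = 0.0182) and 1.41-fold late (-0.50, SE 0.15, adjusted p = 0.0285). The C57BL/6J late fall lost its call without d15 replicate 1 or 2 or d17 replicate 3 (log2 fold change -1.81 to -2.07), and in Cav1-null the early call was lost without any of 3 libraries and the late call without any of another 3.

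Gli3 (ENSMUSG00000021318, chromosome 13, 15637809 to 15904611, plus strand), the main repressor, was the only gene that fell in both phases of all 3 strains. In C57BL/6J, Gli3 was at 99.5, 139 and 117 CPM on d12, 83.8, 80.1 and 74.0 on d15, and 25.7, 12.6 and 14.8 on d17. In AKR/J, Gli3 was at 79.5, 125 and 78.1 CPM on d12, 48.4, 43.4 and 59.0 on d15, and 21.5, 15.8 and 15.8 on d17. In Cav1-null, Gli3 was at 71.9, 55.7 and 38.0 CPM on d12, 22.6, 22.2 and 24.8 on d15, and 11.6, 12.1 and 12.1 on d17. The groups of neighbouring days did not overlap in any strain. The late fall was 4.38-fold in C57BL/6J (log2 fold change -2.13, SE 0.25, adjusted p = 0.00548), 2.76-fold in AKR/J (-1.46, SE 0.14, adjusted p = 0.000843) and 1.91-fold in Cav1-null (-0.93, SE 0.10, adjusted p = 2.12e-05). These late calls held with each library left out, except that in C57BL/6J without d17 replicate 3, which lay just above the threshold (-2.02). The early fall was 1.53-fold in C57BL/6J (-0.61, SE 0.13, adjusted p = 0.0304), 1.92-fold in AKR/J (-0.94, SE 0.22, adjusted p = 0.015) and 2.32-fold in Cav1-null (-1.22, SE 0.19, adjusted p = 0.00274). The AKR/J early falls of Gli2 and Gli3 also passed without d12 replicate 3, the library with the most erythroid reads (-1.15, adjusted p = 0.0325, and -1.05, adjusted p = 0.0267), and without d12 replicate 1, the library with the most Afp (-1.25, adjusted p = 0.0159, and -1.04, adjusted p = 0.0265). Each was kept in 4 of the 6 fits with a library left out. The Gli2 call was lost without d15 replicate 1 or 3 (adjusted p = 0.0614 and 0.0629) and that of Gli3 without d15 replicate 1 or 2 (adjusted p = 0.0716 and 0.0583). Without d12 replicate 1 the other 8 genes did not pass either, with Shh at -0.74 and Foxa2 at -1.56. Without d12 replicate 3 the early changes of Shh, Foxa2 and Foxa1 in AKR/J were -0.73, -0.85 and 0.41 (adjusted p = 0.433, 0.416 and 0.745), the last opposite in sign to its value with all libraries. The calls of Gli2 and Gli3 did not pass with library sizes alone in place of TMM factors (-0.71, adjusted p = 0.204, and -0.57, adjusted p = 0.278), a scaling that moved the median of all genes in this comparison from 0.02 to 0.46.

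Gli1 (ENSMUSG00000025407, chromosome 10, 127165751 to 127177865, minus strand), whose transcription is a common readout of hedgehog activity, passed in no comparison of days or strains with all libraries. In C57BL/6J, Gli1 was at 16.8, 13.4 and 26.2 CPM on d12, 14.4, 9.53 and 7.87 on d15, and 10.8, 11.3 and 9.50 on d17. In AKR/J, Gli1 was at 20.4, 17.7 and 20.1 CPM on d12, 9.36, 19.3 and 9.73 on d15, and 10.1, 10.6 and 8.59 on d17. In Cav1-null, Gli1 was at 9.08, 8.60 and 18.5 CPM on d12, 8.76, 9.66 and 9.15 on d15, and 8.98, 8.88 and 7.70 on d17. Libraries of neighbouring days overlapped in every strain. Early changes were -0.87 (SE 0.32, adjusted p = 0.0996) in C57BL/6J, -0.63 (SE 0.31, adjusted p = 0.165) in AKR/J and -0.39 (SE 0.30, adjusted p = 0.398) in Cav1-null, and late changes lay between -0.37 and 0.03. With DESeq2's Wald test the early C57BL/6J change passed (-0.83, adjusted p = 0.0398), and in AKR/J the early change passed without d15 replicate 2 (-1.06, SE 0.22, adjusted p = 0.0181). On d12 AKR/J was above Cav1-null without Cav1-null d12 replicate 3 (1.19, SE 0.22, adjusted p = 0.02). The highest Gli1 library of a group was also the highest in the connective tissue list in 7 of 9 groups, against 3 to 6 for the other genes. The 3 genes whose levels were most like those of Gli1 over the 27 libraries (Pearson r of log2(CPM + 0.5), 23307 genes) were Tnmd (0.93), Scarf2 (0.92) and Dkk2 (0.92), and Tnmd is known as a tendon gene. Within groups, with group means removed, these r were 0.94, 0.90 and 0.90. The part of connective tissue reads in the levels of Gli1 was not tested.

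Since no change of Gli1 passed while Gli3 fell, the reads of the 2 genes were set against each other within each library, where scaling cancels. This ratio was chosen after the values were seen. In C57BL/6J, Gli1 reads per Gli3 read were 0.169, 0.0965 and 0.223 on d12, 0.172, 0.119 and 0.106 on d15, and 0.419, 0.897 and 0.644 on d17. In AKR/J they were 0.257, 0.142 and 0.258 on d12, 0.193, 0.446 and 0.165 on d15, and 0.469, 0.667 and 0.545 on d17. In Cav1-null they were 0.126, 0.154 and 0.486 on d12, 0.387, 0.435 and 0.369 on d15, and 0.773, 0.735 and 0.638 on d17. Every d17 library was above every d15 library of its strain, and d12 and d15 overlapped in all 3 strains. The ratio of Gli1 to Gli2 reads also had all d17 libraries above those of d15, from 0.263 ± 0.0459 to 1.31 ± 0.591 in C57BL/6J (SD, n = 3), 0.672 ± 0.156 to 1.21 ± 0.163 in AKR/J and 0.958 ± 0.147 to 1.28 ± 0.204 in Cav1-null. Since the ratios were chosen for this pattern, they restate the levels of the genes within libraries and are given as a description, with no test.

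**Figure D3:**
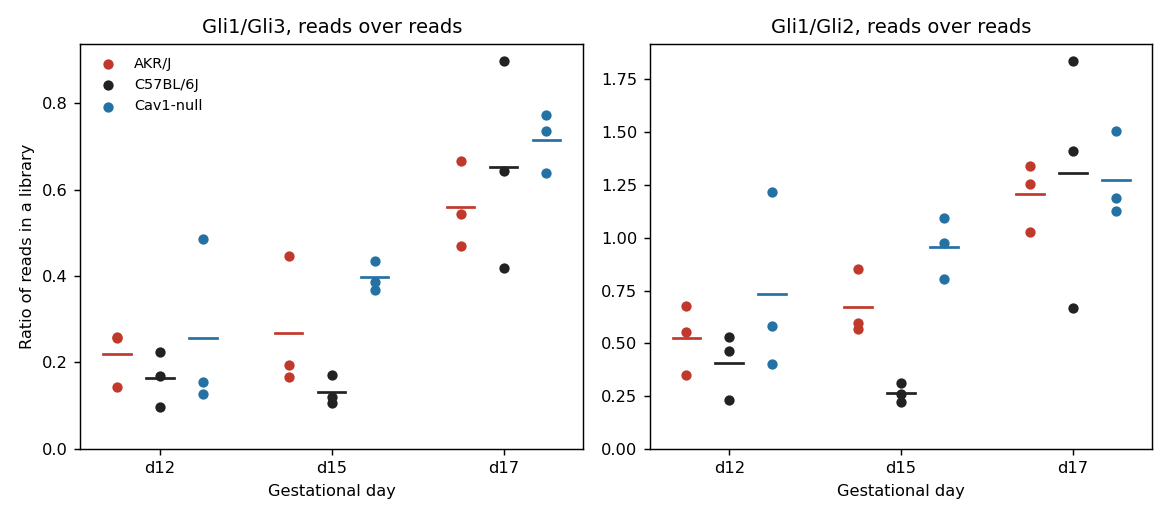
Reads of Gli1 per read of Gli3 (left) and per read of Gli2 (right) in each library, by gestational day, on linear axes from 0. Points are libraries, short lines are group means of 3, and colours are strains. In every strain the d17 points lie above the d15 points, with group means of Gli1 per Gli3 of 0.132 to 0.397 on d15 and 0.560 to 0.715 on d17.

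Nkx2-1 (ENSMUSG00000001496, chromosome 12, 56578742 to 56583722, minus strand), the homeobox factor of the medial ganglionic eminence and hypothalamus, fell late in all 3 strains. In C57BL/6J, Nkx2-1 was at 110, 46.9 and 21.5 CPM on d12, 51.3, 55.0 and 47.2 on d15, and 21.9, 9.53 and 13.3 on d17. In AKR/J, Nkx2-1 was at 58.2, 42.5 and 10.2 CPM on d12, 45.7, 37.1 and 41.8 on d15, and 24.3, 16.7 and 6.93 on d17. In Cav1-null, Nkx2-1 was at 70.1, 76.6 and 14.0 CPM on d12, 26.1, 26.9 and 22.8 on d15, and 10.4, 19.6 and 9.24 on d17. On d12 the lowest library in each strain was replicate 3. The late fall was 3.36-fold in C57BL/6J (log2 fold change -1.75, SE 0.27, adjusted p = 0.0108), 2.54-fold in AKR/J (-1.34, SE 0.35, adjusted p = 0.0277) and 1.90-fold in Cav1-null (-0.92, SE 0.21, adjusted p = 0.0048). In 1 model of all 27 libraries the late calls in AKR/J and Cav1-null were lost (adjusted p = 0.151 and 0.451). With single libraries left out, the C57BL/6J call was kept in 3 of 6 fits and lost without d15 replicate 1 or 2 or d17 replicate 3 (adjusted p = 0.0507, 0.0570 and 0.0773). That of AKR/J was kept in 4 of 6 and lost without d15 replicate 1 or d17 replicate 2 (adjusted p = 0.0696 and 0.107), and that of Cav1-null was kept in all 6. No early change passed, at -0.25 (SE 0.50, adjusted p = 0.748) in C57BL/6J, 0.13 (SE 0.50, adjusted p = 0.872) in AKR/J and -1.04 (SE 0.47, adjusted p = 0.15) in Cav1-null. Without Cav1-null d12 replicate 3 the early change in Cav1-null was -1.49 (SE 0.10, adjusted p = 9.93e-09), and without AKR/J d12 replicate 3 that in AKR/J was -0.31 (SE 0.21, adjusted p = 0.347). The genes most like Nkx2-1 over the 27 libraries were Gm26973 (r = 0.97), Sp8 (0.91) and Shisa2 (0.90). Gm26973 is a long noncoding RNA gene on the opposite strand that overlaps Nkx2-1 (chromosome 12, 56581945 to 56674635) and reached at most 4.07 CPM. The strand setting of the counting is not given in the sources used here, so reads of the pair cannot be told apart.

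Foxa1 (ENSMUSG00000035451, chromosome 12, 57587414 to 57593702, minus strand) and Foxa2 (ENSMUSG00000037025, chromosome 2, 147884797 to 147889005, minus strand), forkhead factors of the floor plate, moved with Shh. In C57BL/6J, Foxa1 was at 8.39, 14.1 and 12.7 CPM on d12, 7.69, 9.35 and 7.26 on d15, and 4.37, 2.65 and 3.83 on d17. In AKR/J, Foxa1 was at 8.67, 1.33 and 14.3 CPM on d12, 4.49, 5.15 and 10.9 on d15, and 2.16, 1.85 and 2.16 on d17. In Cav1-null, Foxa1 was at 7.35, 9.10 and 9.36 CPM on d12, 3.28, 3.12 and 2.27 on d15, and 3.25, 3.30 and 2.26 on d17. AKR/J d12 replicate 2, the lowest of its group in Shh, was also lowest in Foxa1, and AKR/J d15 replicate 3 was highest in both. Foxa1 fell early in Cav1-null, 2.94-fold (log2 fold change -1.55, SE 0.22, adjusted p = 0.00199), with a late change of 0.05 (SE 0.24, adjusted p = 0.898). Late falls passed in AKR/J and C57BL/6J, 3.22-fold (-1.69, SE 0.34, adjusted p = 0.0106) and 2.18-fold (-1.13, SE 0.23, adjusted p = 0.0234), with early changes of -0.28 (SE 0.72, adjusted p = 0.8) and -0.57 (SE 0.22, adjusted p = 0.117). Late in C57BL/6J its call was kept in 2 of the 6 fits with a library left out and lost without any d15 library or d17 replicate 3 (adjusted p = 0.0631 to 0.102). No interaction of strain and day passed for Foxa1 with edgeR and TMM factors, but the late interaction of AKR/J and Cav1-null lay at the threshold (-1.75, SE 0.43, adjusted p = 0.0501). It passed in 4 of 6 other settings, with adjusted p = 0.00481 by DESeq2, and in 2 of 12 fits with a library left out, and not in 1 model of all 27 libraries or with the replicate number as a block.

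In C57BL/6J, Foxa2 was at 2.27, 6.35 and 11.4 CPM on d12, 3.25, 3.72 and 3.16 on d15, and 2.0, 0.85 and 1.31 on d17. In AKR/J, Foxa2 was at 8.00, 2.11 and 14.7 CPM on d12, 1.56, 2.26 and 4.85 on d15, and 0.95, 0.43 and 0.72 on d17. In Cav1-null, Foxa2 was at 2.43, 5.87 and 5.30 CPM on d12, 1.61, 1.03 and 0.97 on d15, and 1.08, 1.48 and 0.35 on d17. It was the lowest in reads of the 10, with 11 to 354 a library. The early fall in Cav1-null was 3.73-fold (log2 fold change -1.90, SE 0.39, adjusted p = 0.00896), and the late falls were 3.97-fold in AKR/J (-1.99, SE 0.48, adjusted p = 0.0204) and 2.38-fold in C57BL/6J (-1.25, SE 0.32, adjusted p = 0.042). Without AKR/J d12 replicate 2 the early change in AKR/J passed (-2.05, SE 0.51, adjusted p = 0.0194), with the same rise of calls over all genes as for Shh, and it passed with all libraries under DESeq2 (-1.61, adjusted p = 0.033). Foxa3, a forkhead gene of the endoderm, stood at 1.98, 0.068 and 1.5 CPM in AKR/J d12 replicates 1, 2 and 3 and at most 0.128 in C57BL/6J and Cav1-null, so it was low in the same library as Foxa2, and its part was not tested. Early in Cav1-null the Foxa2 call was lost without d15 replicate 3 (adjusted p = 0.0530). Late in AKR/J, the calls of Foxa1 and Foxa2 were lost without d17 replicate 2 or 3, and late in C57BL/6J that of Foxa2 was lost without any library but d17 replicate 1.

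Levels of Shh, Foxa1 and Foxa2 went together within groups too. With group means removed, r over the 27 libraries was 0.85 for Shh with Foxa1, 0.78 for Shh with Foxa2 and 0.86 for Foxa1 with Foxa2, and lower, at 0.56, for Shh with Ptch1. It was 0.47 for Ptch1 with Foxa1 and 0.48 for Ptch1 with Foxa2, while it was -0.07 for Shh with Smo and 0.04 for Shh with Gli1. A separate pair of high values was that of Gli2 with Gli3 (0.77) and Smo with Gli3 (0.72). Nkx2-1 went with neither Shh (-0.05) nor Foxa2 (-0.37). Among the 3 genes most like Shh over all libraries were Rcn2 (0.96) and Hnrnpf (0.95), and those most like Foxa2 were Vcam1 (0.93), Shh (0.92) and Hif1a (0.91). These are descriptions over libraries that share a depth and a dissection each.

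The start regions of the genes were searched for forkhead and GLI motifs, as a description. RefSeq windows of 250 bases before and 50 after the start, on GRCm38.p6, were at hand for 8 of the 10 genes, as 10 windows, and for neither Shh nor Gli1. The forkhead letters TGTTTAC, on either strand, stood in the window of Foxa1 and of no other of the 8 genes, against 3.65% of 32851 windows of all genes. The GLI letters GACCACCCA stood in none of the 10 windows, against 0.253% of all. The 250 bases before the Foxa1 start are shown with the forkhead match in capitals, as its reverse complement, beginning 141 bases before the start.
Foxa1 upstream, GRCm38.p6 chr12:57546112-57546361, minus strand: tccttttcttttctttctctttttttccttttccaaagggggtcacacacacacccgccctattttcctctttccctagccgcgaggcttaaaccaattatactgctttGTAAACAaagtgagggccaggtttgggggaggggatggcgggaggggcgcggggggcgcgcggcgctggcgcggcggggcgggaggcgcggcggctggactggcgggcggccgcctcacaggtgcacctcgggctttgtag
A match of letters is a description of the sequence and not a site, and 10 windows are too few to set against the shares of all windows.

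**Figure D4:**
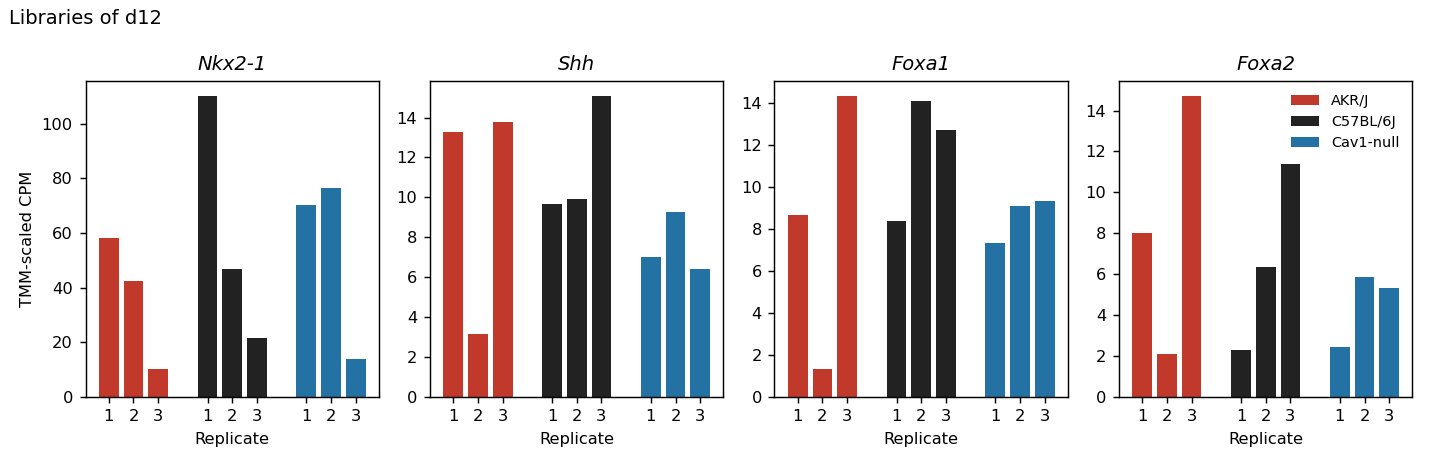
Nkx2-1, Shh, Foxa1 and Foxa2 in each library of d12, in TMM-scaled CPM, as bars from 0 by replicate and strain. Replicate 3 of each strain is lowest in Nkx2-1, whereas AKR/J replicate 2 is lowest of its group in Shh, Foxa1 and Foxa2 at 3.16, 1.33 and 2.11 CPM.

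Other genes of the pathway were taken from lists, which leave out the 10 genes. For these counts, the shares of all genes that fell early were 14%, 7.8% and 11.8% in AKR/J, C57BL/6J and Cav1-null, and late 10.4%, 5.58% and 12.8%. The shares that rose early were 14.8%, 7.08% and 11.6%, and 14.5% rose late in Cav1-null. Of 5 cell-surface receptors and co-receptors, among them Cdon, Boc, Gas1 and Lrp2, 2 fell early and 3 late in AKR/J, 3 and 4 in C57BL/6J, and 4 and 3 in Cav1-null, with none rising. Leaving out single libraries gave 1 to 3 falls early and 3 to 4 late in AKR/J. It gave 0 to 3 and 1 to 4 in C57BL/6J, and 3 to 4 and 2 to 3 in Cav1-null. Gas1, a co-receptor that aids Shh binding, fell early by -1.13 (SE 0.23) in AKR/J, -0.88 (SE 0.15) in C57BL/6J and -1.72 (SE 0.13) in Cav1-null on the log2 scale, and also passed late in each strain. Boc, another co-receptor, fell late by -1.08 (SE 0.11), -1.26 (SE 0.19) and -0.69 (SE 0.10) in the same order. Of 14 genes of the relay between Smo and the Gli proteins, 4 rose and none fell early in AKR/J, with Gpr161 at 0.77 (SE 0.23), and 3 fell late. In C57BL/6J 1 rose and 1 fell early and 2 fell late, led by the Gli inhibitor Sufu at -1.17 (SE 0.28). In Cav1-null 2 fell early, with the ciliary gene Evc at -0.83 (SE 0.13), and 2 rose and 2 fell late. With single libraries left out, 0 to 7 of the relay genes rose early and 0 to 4 fell late in AKR/J, and in C57BL/6J 0 to 6 rose early and 0 to 7 fell late. Of the genes for other ligands and for ligand release, with 6 to 8 tested, 1 rose early in AKR/J and 2 fell late, none passed in C57BL/6J, and in Cav1-null 1 rose and 1 fell early and 1 rose late. Disp2 rose early in AKR/J by 1.84 (SE 0.26) and in Cav1-null by 0.58 (SE 0.12), Scube3 fell early in Cav1-null by -0.40 (SE 0.11), and Disp1 fell late in AKR/J by -0.56 (SE 0.17).

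Of 8 genes that hedgehog signalling is known to raise in neural progenitors, 1, 2 and 5 fell early in AKR/J, C57BL/6J and Cav1-null, and 5 fell late in each, the 1 in AKR/J being near the share of all genes that fell there. Ccnd1, a cyclin of the G1 phase, fell early by -0.98 (SE 0.23), -1.44 (SE 0.19) and -2.18 (SE 0.17). Cdk6 was among 2 that rose early in AKR/J, by 1.03 (SE 0.22). Of 22 to 24 other regulators of the ventral brain that were tested, 1, 4 and 8 fell early and 6, 8 and 7 late, in the same order of strains, the early AKR/J count being under the 14% of all genes that fell, with medians of 0.40, 0.04 and -0.76 early and -0.88, -1.12 and -0.34 late. Olig2, a factor of ventral progenitors and oligodendrocyte precursors, rose late in Cav1-null by 0.82 (SE 0.10), and Six6, of the hypothalamus and eye, rose early in AKR/J by 4.67 (SE 0.80). Of 14 genes of the floor plate and ventral midbrain, 2, 1 and 6 fell early and 6, 5 and 2 late, where the early AKR/J and C57BL/6J counts and the late Cav1-null count are near the shares of all genes that fell. Lmx1a fell early by -2.05 (SE 0.37) in AKR/J and by -1.34 (SE 0.24) in Cav1-null, and Ntn1 late by -1.73 (SE 0.41) in AKR/J. Of 20 to 23 dorsal regulators tested, which stand opposite the ventral genes, 6, 6 and 13 fell early and 11, 14 and 9 late, with medians of -0.85, -0.62 and -0.82 early and -0.80, -1.09 and -0.50 late. Among these, Eomes fell late by -2.29 (SE 0.24) in C57BL/6J and by -1.52 (SE 0.14) in Cav1-null. All of these calls had an adjusted p under 0.05 in the same edgeR test. With single libraries left out, the number lower ran from 0 to 8 of the target list, from 0 to 18 of the ventral list, from 0 to 13 of the floor plate list and from 1 to 18 of the dorsal list late in C57BL/6J. Late in AKR/J it ran from 2 to 12, 1 to 8 and 5 to 13 of the ventral, floor plate and dorsal lists, and early in Cav1-null from 3 to 21, 5 to 7 and 5 to 17.

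The second question was how the strains differed on each day. Against C57BL/6J, Cav1-null differed on d15. On that day 9 of 10 genes, all but Gli1, were lower in Cav1-null, but 31.8% of all 19827 genes tested were lower and 58.6% differed in either direction. Libraries of the groups did not overlap for any of the 9, and the share of all genes without overlap was not counted. Gli2 was 3.97-fold lower (log2 fold change -1.99, SE 0.14, adjusted p = 8.55e-07) and Gli3 3.32-fold lower (-1.73, SE 0.08, adjusted p = 4.85e-08). Foxa1 and Foxa2 were both 2.73-fold lower (-1.45, SE 0.19, adjusted p = 9.86e-05, and -1.45, SE 0.25, adjusted p = 0.000631). Smo was 2.39-fold lower (-1.26, SE 0.11, adjusted p = 4.15e-06), Shh 2.21-fold (-1.14, SE 0.18, adjusted p = 0.00038), Nkx2-1 1.97-fold (-0.98, SE 0.09, adjusted p = 4.48e-06) and Ptch1 1.90-fold (-0.92, SE 0.07, adjusted p = 1.03e-06). Hhip was 1.52-fold lower (-0.61, SE 0.18, adjusted p = 0.0152), a call that was lost without C57BL/6J d15 replicate 1 or Cav1-null d15 replicate 1 (adjusted p = 0.0530 and 0.0557) and with library sizes alone (-0.43, adjusted p = 0.0653). In 1 model of all 27 libraries the calls of Hhip, Nkx2-1 and Foxa2 were lost (adjusted p = 0.068, 0.176 and 0.0629). Gli1 differed by -0.17 (SE 0.21, adjusted p = 0.504). The median of the 10 genes was -1.20, against 0.03 over all genes, and lists of ventral, floor plate and dorsal regulators had medians of -1.02, -1.10 and -1.32, with 16 of 23, 11 of 14 and 20 of 23 genes lower. The connective tissue list was at 446 to 5724 CPM in the C57BL/6J libraries of that day and at 118 to 206 in those of Cav1-null, and its part was not tested. Without C57BL/6J d15 replicate 1, the library with 5724 CPM, 8 of 10 genes were still lower.

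On d12 and d17 none of the 10 genes passed between Cav1-null and C57BL/6J, and 0% and 0.0491% of all genes did. On d12, 4309 of all genes had an unadjusted p under 0.05 in edgeR and DESeq2 called 1766. On d12 all 10 log2 fold changes were negative, 5 had an unadjusted p under 0.05, and DESeq2 called 4 of them. The largest were Gli2 at -1.44 (SE 0.24, adjusted p = 0.105 by edgeR) and Gli3 at -1.08 (SE 0.23, adjusted p = 0.105). The libraries of the groups did not overlap for either, with no count of such genes over all genes. On d12 Gli2, Gli3, Ptch1 and Smo passed in 1 model of all 27 libraries (adjusted p = 0.0117, 0.0126, 0.0190 and 0.0487), which called 1734 of 23307 genes. Without C57BL/6J d12 replicate 3, Gli2, Gli3 and Ptch1 passed (adjusted p = 0.0326, 0.0434 and 0.0440), as did 1500 of all genes. On d17, 1 of 10 had an unadjusted p under 0.05, as did 1538 of 20358 genes, and DESeq2 called none of the 10 and 48 of all genes. Smo passed on d17 without C57BL/6J d17 replicate 2 (-0.69, adjusted p = 0.0318), when 2865 of all genes passed.

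AKR/J was compared with C57BL/6J in the same way. On d15, Ptch1, Gli2 and Gli3 were lower in AKR/J, 3 of 10, where 22.3% of all genes were lower. Gli2 was 2.06-fold lower (log2 fold change -1.04, SE 0.18, adjusted p = 0.0034), Gli3 1.53-fold (-0.62, SE 0.09, adjusted p = 0.00186) and Ptch1 1.33-fold (-0.41, SE 0.14, adjusted p = 0.0444), the last being lost without 5 of the 6 libraries while Gli2 and Gli3 passed without each of them. None passed on d12 or d17, where 28.6% and 0.742% of all genes differed in either direction. Of the 10 genes, 1 and 2 had an unadjusted p under 0.05, as did 8231 of 19320 and 4275 of 20207 genes. DESeq2 called 1 and 0 of the 10, and 6803 and 1330 of all genes. On d12, 3 passed in 1 model of all 27 libraries, with Ptch1 and Smo lower and Hhip higher (adjusted p = 0.00368, 0.0265 and 0.0452). That model called 10960 of 23307 genes on d12. Without AKR/J d12 replicate 2, Smo was lower on d12 (-0.68, adjusted p = 0.0125), when 8009 of all genes passed. Without C57BL/6J d17 replicate 2, Ptch1 and Foxa1 were lower on d17 (adjusted p = 0.0317 and 0.0218), when 5478 of all genes passed. Hhip on d12 was higher in every AKR/J library than in any of C57BL/6J (0.80, SE 0.33, adjusted p = 0.0953).

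Against Cav1-null, AKR/J was higher in Gli2 and Hhip on d12, 2 of 10, where 9.65% of all genes were higher. Gli2 was 2.28-fold higher (log2 fold change 1.19, SE 0.25, adjusted p = 0.0143) and Hhip 2.07-fold (1.05, SE 0.27, adjusted p = 0.029). The Hhip call was kept in 1 of the 6 fits with a library left out, that without AKR/J d12 replicate 2, and lost in the others (adjusted p = 0.0624 to 0.143). The Gli2 call was kept in 4 of 6, and lost without Cav1-null d12 replicate 2 or 3 (adjusted p = 0.0698 and 0.0521). With library sizes alone neither passed (0.84, adjusted p = 0.163, and 0.62, adjusted p = 0.224), where the median of all genes moved to -0.41. On d15, 7 of 10 were higher in AKR/J, where 9.6% of all genes were, namely Shh, Ptch1, Smo, Gli2, Gli3, Nkx2-1 and Foxa1. Gli3 was 2.10-fold higher (1.07, SE 0.11, adjusted p = 0.000432), Smo 1.97-fold (0.98, SE 0.10, adjusted p = 0.000436) and Nkx2-1 1.60-fold (0.68, SE 0.10, adjusted p = 0.00253), each with every library left out. Shh was 2.28-fold higher (1.19, SE 0.26, adjusted p = 0.0166), Foxa1 2.29-fold (1.20, SE 0.34, adjusted p = 0.0394), Gli2 1.86-fold (0.90, SE 0.19, adjusted p = 0.0143) and Ptch1 1.38-fold (0.47, SE 0.13, adjusted p = 0.0406), and these were lost without some libraries. In 1 model of all 27 libraries, 3 of the 7 passed. On d17 only Gli3 was higher (0.54, SE 0.13, adjusted p = 0.0179), 1 of 10, against 5.73% of all genes, a call lost without AKR/J d17 replicate 1 or Cav1-null d17 replicate 2 or 3 (adjusted p = 0.0508 to 0.0629). The comparisons of strains share libraries on each day and are not independent of each other or of those between days.

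**Figure D5:**
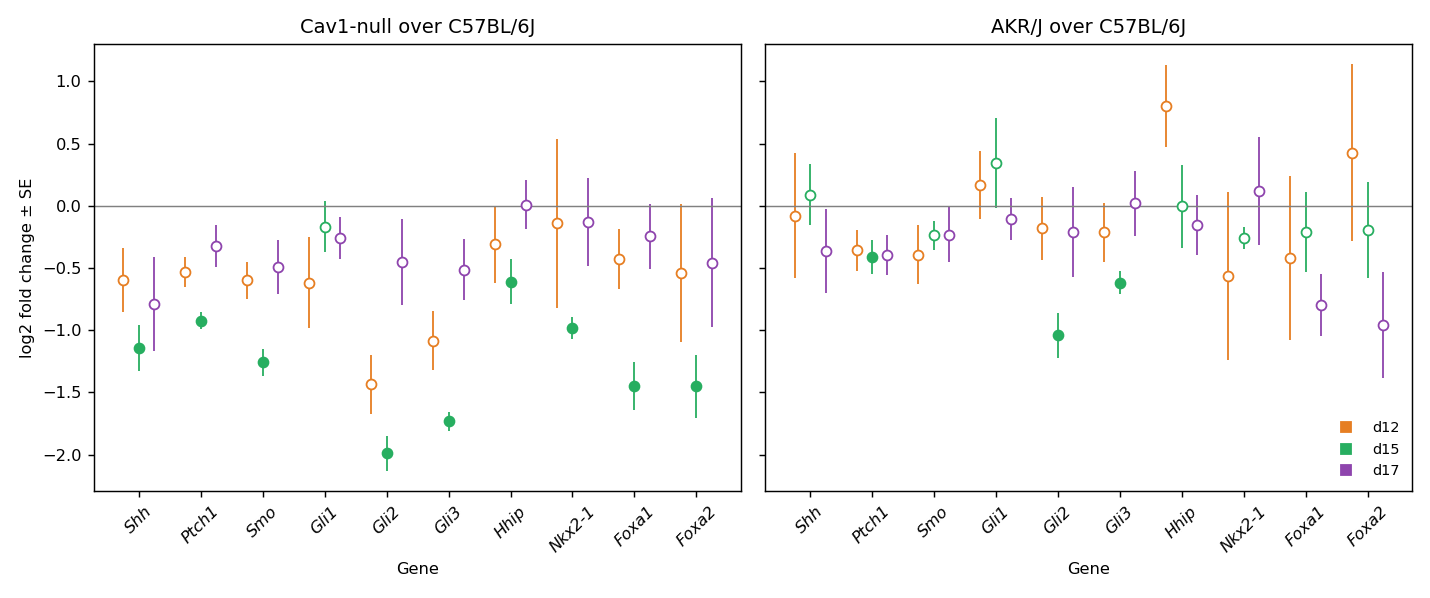
Log2 fold change of each gene in Cav1-null (left) and AKR/J (right) over C57BL/6J, with bars of 1 SE, coloured by day. Filled points have an adjusted p under 0.05 and open points do not. Every filled point is of d15 and below 0, down to -1.99 for Gli2 in Cav1-null.

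Whether the change between days itself differed between strains was tested in edgeR with an interaction term for strain and day, for 3 pairs of strains and 2 phases. None of the 60 pairs of gene and interaction passed, 19 had an unadjusted p under 0.05, the lowest adjusted p was 0.0501, and DESeq2 called 7. By DESeq2, 45 to 4352 of all genes tested were called in an interaction, and 4 to 3664 with no filter on low counts. In edgeR, 1617 to 6576 of the 21090 to 21774 genes tested had an unadjusted p under 0.05. Of all genes, 0.0711% passed for AKR/J and C57BL/6J early and 0.00468% late, 0.00472% for Cav1-null and C57BL/6J early and 0.252% late, and 14.7% for AKR/J and Cav1-null early and 2.13% late. Without C57BL/6J d17 replicate 1, which was the highest of its group in Smo, Gli2, Gli3 and Nkx2-1 and in connective tissue reads, 8 pairs passed. Of these, 6 were in the late phase of Cav1-null against C57BL/6J, where Gli2 differed by 2.12 (adjusted p = 7.51e-05) and Gli3 by 1.60 (adjusted p = 2.36e-05), and 5792 of all genes passed instead of 54. Only with that library left out, or by DESeq2 or with no filter on low counts (7 pairs each), did more than 2 pairs pass.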

How the data were processed

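RNA of fetal whole brain was measured by poly-A RNA-seq in 27 libraries. The authors trimmed reads with cutadapt and fastp, aligned them with STAR to GRCm39 and deposited raw read counts per gene and per splice junction. Tool versions, the counting tool, its strand setting and its treatment of multi-mapped reads are not given in the sources used here. The deposited junction counts leave out junctions with multi-mapped reads, short overhangs or few reads, so a junction count of 0 may be a removed value.

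Libraries were grouped by strain and day from the labels. Genes passing filterByExpr were tested with the quasi-likelihood test of edgeR 4.0.16 in R 4.3.3, with TMM factors and Benjamini-Hochberg adjustment over all genes of a comparison, at 0.05. Each comparison used its own 6 libraries, or 12 for an interaction, with no covariates. SE is the log2 fold change over the root of the F statistic. Alternatives were DESeq2 1.42.0, RLE factors, library sizes alone, no filter, 1 model of all 27 libraries, the replicate number as a block, and leaving out each library in turn. The code was tested on simulated counts.

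The members and lists were chosen with earlier results of these data known. Named were all 10 members, the 3 genes most like Shh, Gli1, Nkx2-1 and Foxa2, and from each pathway list genes with the largest called rise or fall. Some genes the rule would name are not reported here. Boc, the early changes of Gas1 in AKR/J and C57BL/6J, and the ratios of Gli genes were chosen after their values were seen. Counting intervals cover counting error only, as reads carry no molecular identifiers. Totals over genes of 26363697 to 39759702 reads gave the members 11 to 4497 reads a library.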

Additional observations from a re-analysis of the deposited data

How the results depend on the processing

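Of 30 pairs of gene and strain, 12 passed in the early phase and 18 in the late phase with edgeR and TMM factors, and 9 to 14 and 12 to 20 did with single libraries left out. Between strains, 3 passed for AKR/J against C57BL/6J (2 to 5 with a library left out), 9 for Cav1-null against C57BL/6J (8 to 12) and 10 for AKR/J against Cav1-null (6 to 11). The count of 5 came without C57BL/6J d17 replicate 2 and that of 6 without Cav1-null d15 replicate 1 or 2. In 1 model of all 27 libraries, 6 passed for AKR/J against C57BL/6J and 6 for AKR/J against Cav1-null. The same model took the late calls from 18 to 12, with Cav1-null late from 5 to 1, Cav1-null against C57BL/6J on d15 from 9 to 6 and AKR/J against Cav1-null on d15 from 7 to 3. It raised AKR/J early from 2 to 5, AKR/J against C57BL/6J on d12 from 0 to 3 and Cav1-null against C57BL/6J on d12 from 0 to 4. In the same order it called 9568, 10960 and 1734 of all 23307 genes. For the interactions, where 0 of 60 passed, 7 did with DESeq2, 7 with no filter, 2 with library sizes alone, 1 with RLE factors, 1 in 1 model of all 27 libraries, and 0 to 8 with single libraries left out. No called change reversed its sign. The cause of these shifts was not tested.

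With the replicate number as a block, 9 early, 18 late, 3, 9 and 8 strain pairs and 0 interactions passed, and in C57BL/6J early the calls went from 3 to 0 (2850 to 0 over all genes). Samples sharing a number had deviations correlated at -0.164 to 0.158, so the numbers do not pair the libraries.

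Over all genes, 1 model of all 27 libraries moved the calls from 5758 to 9568 early in AKR/J, 4409 to 2366 late in AKR/J, 4666 to 3056 early and 5530 to 829 late in Cav1-null. DESeq2 moved them from 2850 to 4827 early and 2594 to 4581 late in C57BL/6J, and from 0 to 1766 for Cav1-null against C57BL/6J on d12. Library sizes alone gave 3588 higher and 1214 lower early in AKR/J, against 2958 and 2800. Foxa2 had 11 to 354 reads a library, and the SE of its log2 fold changes ran from 0.25 to 0.93 over the 21 comparisons. All 21 junctions of the members also had at least 50 reads.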
